A study of Mus musculus with 12 samples.

Results

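The genes described are 9 transcription factors of the skeletal muscle programme, namely the myogenic regulatory factors Myod1, Myog, Myf5 and Myf6, the myocyte enhancer factors Mef2a, Mef2c and Mef2d, the paired box factor Pax7 and the sine oculis homeobox factor Six4. All probes with these gene symbols were taken, which gave 18 of the 56605 probes on the array and 9 of its 27306 named genes. RNA came from C2C12 cells, an established line of mouse C3H myoblasts that fuse into myotubes in culture when serum is lowered. Cells were transfected with a control siRNA (siControl) or with an siRNA against Bach1 (siBach1), and RNA was taken at day 0, at confluence and without induced differentiation, or at day 2 in medium with 2% horse serum. Bach1 is a transcriptional repressor that binds haem and is best known for repressing antioxidant genes. Each of the 4 conditions, siControl day 0, siBach1 day 0, siControl day 2 and siBach1 day 2, had 3 arrays, and all 12 samples went through transfection. A single siRNA sequence against Bach1 was used on the arrays, so an effect of silencing cannot be told apart from any other effect of that sequence. Nothing in the labels says that the replicates were separate cultures, so the p-values measure the spread between these samples.

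Myod1 and Myf5 commit cells to the muscle lineage, Myog drives terminal differentiation, and Myf6 acts mostly in maturing fibres. These factors pair with E proteins through a basic helix-loop-helix domain and bind the E-box. The Mef2 proteins bind an A/T-rich element beside many E-boxes and work together with the myogenic factors, and their own genes are switched on as myoblasts differentiate. Pax7 marks satellite cells, the resident stem cells of muscle, and its level falls as they differentiate, while Six4 binds the MEF3 element found in the Myog promoter and elsewhere.

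Values are log2 signals relative to the 75th percentile of the array, so that a difference of 1 is a change of 2-fold, and a probe counts as measured where the scanner called it well above background. Bach1 itself, with 1 probe, lay between 1.55 and 1.78 in siControl and between -0.22 and 0.18 in siBach1 cells at day 0. The ranges were 2.55 to 2.58 and 0.56 to 0.65 at day 2, and the silencing effect was -1.77 (adjusted p = 1.23e-05) and -1.97 (adjusted p = 1.36e-05). The arrays had between 26921 and 33313 probes well above background. Replicates 1 and 2 of every condition shared a slide and replicate 3 lay on another, and each condition kept its own column on both slides, so that column and condition cannot be told apart. Of 5 myoblast markers, 4 were measured on all 12 arrays and Myf5 on 8, and all 5 markers of differentiating muscle that are on the array under these names were measured on all 12. Markers of other cell types were found in part. Adipoq (fat), Adgre1 (leukocyte), Cdh5 and Kdr (endothelial) and Rbfox3 (neural) were well above background on 0 arrays. The third endothelial marker, Pecam1, was so on 11 of 12. Measured on all 12 were 3 of 5 osteoblast markers (Runx2, Sp7 and Alpl) and 2 of 5 fat markers (Cebpa and Pparg). So were 3 of 4 leukocyte markers (Ptprc, Cd68 and Cd3e) and 1 of 3 neural markers (Tubb3). The log2 of the summed signal of the 3 neural markers lay between 3.78 and 4.07 in siControl and between 2.62 and 2.88 in siBach1 cells at day 0. Nearly all of that sum is Tubb3, whose mean was 3.90 in siControl and 2.73 in siBach1 cells. The means of Sox10 were -3.93 and -4.02, and those of Rbfox3, below background, -6.60 and -5.88. The part of the neural markers in the results was not tested.

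Of the 18 member probes, 12 exceeded background on each of the 12 arrays and 2 on none. A probe was tested where all 3 arrays of at least 1 condition were well above background. This held for 15 member probes of 8 genes. It left out the single Myf5 probe and the 2 probes never above background, which belong to Mef2c (A_65_P11889) and Six4 (A_55_P2902338). There is 1 probe for each of 5 genes, and Mef2a, Mef2c, Mef2d and Six4 have more than 1. RNA from whole cultures was measured, so fewer cells that express a gene and less RNA in each cell cannot be told apart.

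The sequence around the start of 2 member genes is shown because both rose with differentiation in both siRNA groups and both promoters hold elements that members themselves recognise. Mef2c, whose sequence is not shown, met these conditions too, with E-boxes and a MEF3 core among its promoters. Both are RefSeq promoters of build GRCm38.p6, with 250 bases before and 50 bases after the annotated start, written on the coding strand. Capitals mark the matches, searched on both strands. The Myog promoter (chr1:134289754-134290053, plus strand) held E-boxes of the form CANNTG at -138 and -12 and the MEF3 core TCAGGTT at -84.
Myog: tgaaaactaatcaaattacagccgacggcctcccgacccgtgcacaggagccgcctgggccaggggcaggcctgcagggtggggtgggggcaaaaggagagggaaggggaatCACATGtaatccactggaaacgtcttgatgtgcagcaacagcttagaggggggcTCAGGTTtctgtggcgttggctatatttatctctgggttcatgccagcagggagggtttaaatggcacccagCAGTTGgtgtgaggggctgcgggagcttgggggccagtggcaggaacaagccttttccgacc
The Mef2a promoter (chr7:67372809-67373108, minus strand) held a Mef2 element at -2, searched in its strict form of a pyrimidine, TA, A or T at each of the next 4 bases, TA and a purine, and, at -227, TGANNNNGC, a loose form of the core of the antioxidant response element, which Bach1 binds together with small Maf proteins.
Mef2a: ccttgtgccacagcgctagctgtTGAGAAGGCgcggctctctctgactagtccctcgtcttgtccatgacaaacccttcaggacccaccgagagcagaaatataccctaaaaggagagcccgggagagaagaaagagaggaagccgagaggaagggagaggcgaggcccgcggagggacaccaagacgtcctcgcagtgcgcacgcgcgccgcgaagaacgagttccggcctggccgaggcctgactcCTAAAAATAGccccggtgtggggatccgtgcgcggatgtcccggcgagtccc
Of the 9 genes, 7 had promoters in the table, 10 in all. CANNTG occurred in 3 of the 10 against 72.3% of 32851 promoters of the same length, and its muscle form CAGCTG, which is also a CANNTG, occurred in 0 against 16.3%. The Mef2 element occurred in 1 of 10 against 3.19%, TGANNNNGC in 4 of 10 against 41.3%, and TCAGGTT in 3 of 10 against 4.07%. Those with TGANNNNGC belong to Mef2a, Mef2c and Six4. The motif TCAGGTT was added after these sequences were seen, so its share among them is no test. Mef2c and Six4 have more than 1 of the 10 promoters, and the Six4 windows overlap. Only that strict form of the Mef2 element was counted, and other A/T-rich stretches, as in the Myog window, were not. The Myf5, Mef2d and Pax7 windows held no match to any of these, which says only that these letters are not in these windows. A match is a description of the sequence and not a bound site.

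**Figure D1:**
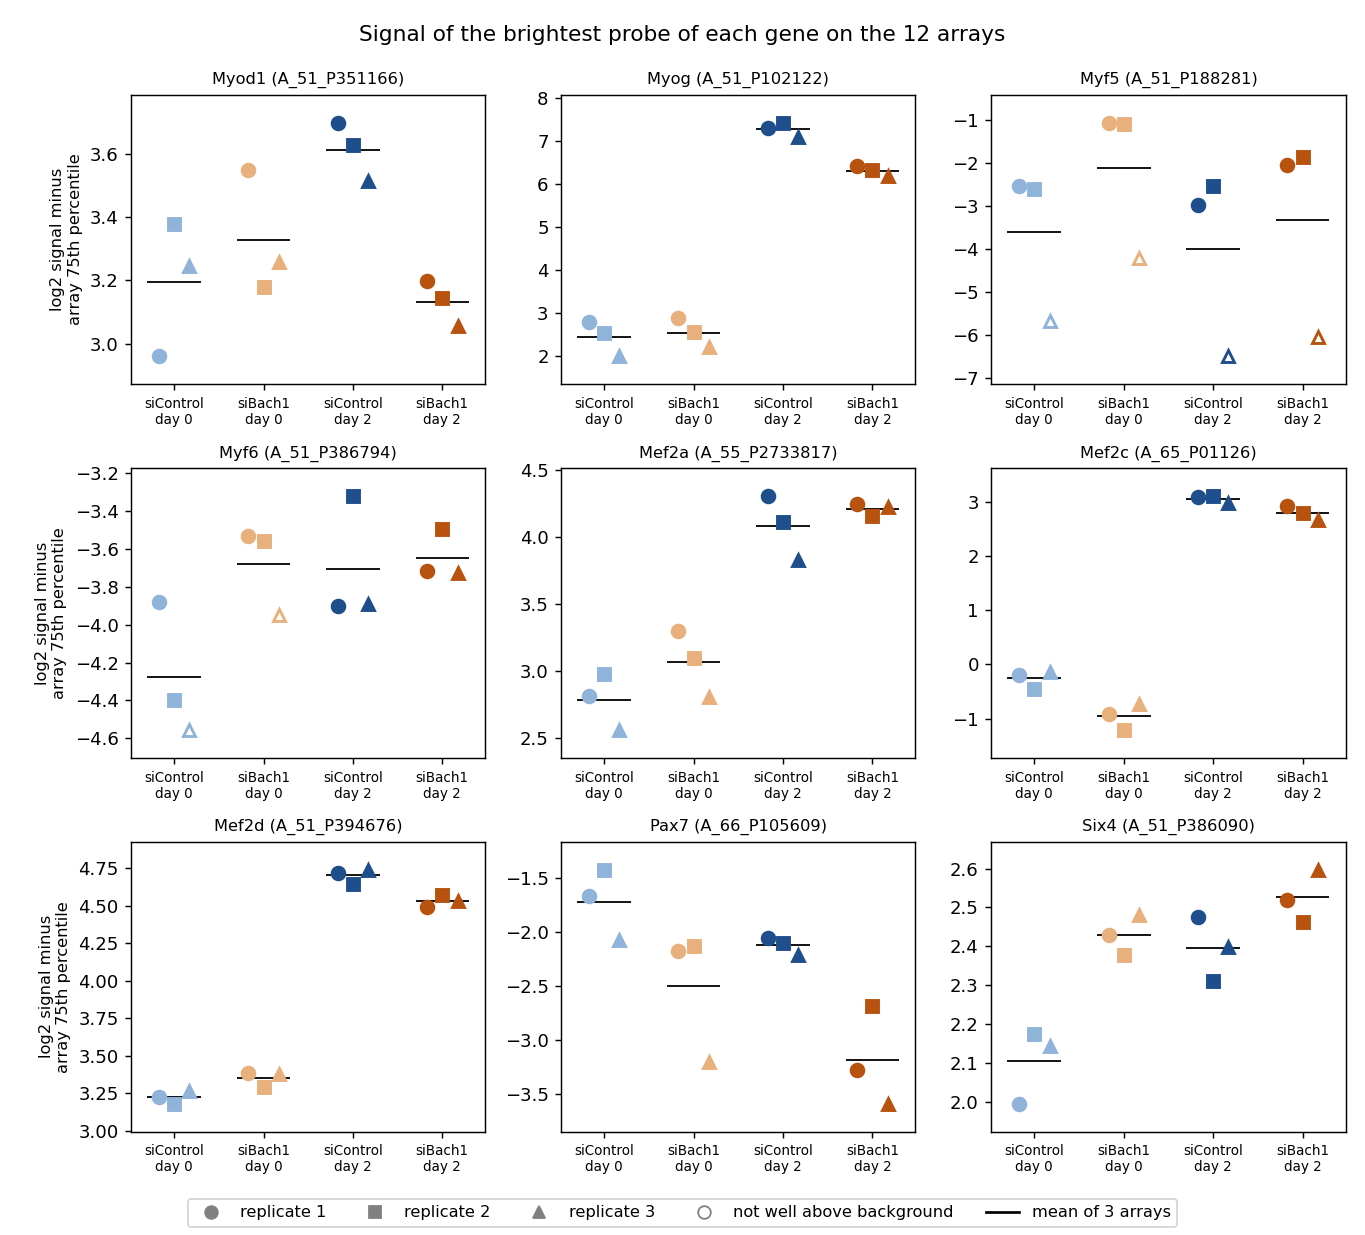
Signal of 1 probe per gene, the one with the highest mean, on all 12 arrays (log2 signal minus the array's 75th percentile; panels have their own axes, and open symbols were not well above background). Myog and the 3 Mef2 genes stand higher on every day 2 array than on any day 0 array, and Myf5 has open symbols on replicate 3 in all 4 conditions.

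Myog was the member with the largest change during differentiation in siControl cells. In replicates 1 to 3 at day 0 its log2 signal was 2.79, 2.52 and 1.99 with siControl and 2.87, 2.56 and 2.19 with siBach1. By day 2 the values were 7.31, 7.43 and 7.11 in siControl and 6.42, 6.33 and 6.18 in siBach1 cells. The groups overlapped at day 0, and at day 2 every siBach1 array lay below every siControl array. Myog rose 28.8-fold in siControl cells (log2 change 4.85, SE 0.21, n = 3, adjusted p = 7.4e-08, limma) and 13.6-fold in siBach1 cells (3.77, SE 0.21, adjusted p = 3.63e-07). In siBach1 cells its rise was about that of the brightest Mef2c probe (3.75), which rose more than Myog in replicates 1 and 2 and less in replicate 3.

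At day 2 Myog was 1.97-fold lower upon silencing (-0.98, SE 0.21, n = 3, adjusted p = 0.0165). Its difference was 0.11 at day 0 (adjusted p = 0.784). The lower level at day 2 was seen in every replicate pair, at -0.90, -1.10 and -0.93, and thus on both slides. With replicate as a block the adjusted p at day 2 was 0.00205. Without the block the call was lost when siControl day 2 replicate 1 (adjusted p = 0.0531) or siBach1 day 2 replicate 3 (0.0551) was left out. It was also lost when every probe was tested without the filter on dim probes (0.0616), also on the slide of replicates 1 and 2 alone (0.144). The silencing effect at day 2 minus that at day 0 was -1.08 (SE 0.30). This difference missed the threshold without a block (adjusted p = 0.071) and passed it with replicate as a block (0.0119) or slide as a block (0.00895).

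Myod1 moved far less than Myog. Its log2 signal was 2.96, 3.38 and 3.25 in siControl and 3.55, 3.18 and 3.26 in siBach1 cells at day 0, where the groups overlapped. At day 2 it was 3.70, 3.63 and 3.52 in siControl and 3.20, 3.15 and 3.06 in siBach1 cells, with no overlap. The mean level was highest in siControl cells at day 2 (3.61 ± 0.09, SD, n = 3), followed by siBach1 day 0 (3.33 ± 0.20), siControl day 0 (3.20 ± 0.21) and siBach1 day 2 (3.13 ± 0.07). The last 3 of these overlapped, and the siControl day 2 range (3.52 to 3.70) also overlapped that of siBach1 day 0 (3.18 to 3.55).

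Myod1 rose 1.34-fold with differentiation in siControl cells (0.42, SE 0.13, adjusted p = 0.0182) and differed by -0.20 in siBach1 cells (adjusted p = 0.223). At day 2 it was 1.40-fold lower upon silencing (-0.48, SE 0.13, n = 3, adjusted p = 0.0365; 0.0357 with replicate as a block), with differences of -0.50, -0.48 and -0.46 in the 3 replicate pairs. This call did not survive the loss of any 1 of its 6 arrays, with adjusted p between 0.0576 and 0.114 and a change between -0.53 and -0.44. The silencing effects of the 2 days differed by -0.61 (adjusted p = 0.0834; 0.0645 with replicate as a block and 0.0494 with slide as a block). Centring the arrays on their median instead of the 75th percentile moved the rise in siControl cells to 0.23 (adjusted p = 0.167) and the change in siBach1 cells to -0.44 (adjusted p = 0.0147).

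Myf5 was measured in replicates 1 and 2 only, and in both it was higher in siBach1 than in siControl cells at both days. Its log2 signal was -2.54, -2.60 and -5.67 in siControl and -1.06, -1.10 and -4.19 in siBach1 cells at day 0. The day 2 values were -2.98, -2.54 and -6.49 in siControl and -2.05, -1.85 and -6.05 in siBach1 cells. The third value of each group was not well above background, so the third pair gives no measured difference. In the 2 measured pairs the siBach1 array was higher by 1.48 and 1.51 at day 0 and by 0.93 and 0.68 at day 2.

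Myf5 was not tested under the filter, because no condition had it well above background on all 3 arrays. On the slide of replicates 1 and 2 alone, where it was measured on every array, all 56605 probes were tested. There the day 0 difference was 1.50 (SE 0.18, n = 2, adjusted p = 0.051, limma) and the day 2 difference 0.81 (adjusted p = 0.199), neither past the threshold. With differentiation Myf5 changed on that slide by -0.87 in siBach1 cells (adjusted p = 0.0208) and by -0.19 in siControl cells (adjusted p = 0.595). Fits of all 12 arrays also use the replicate 3 signals below background. They gave 1.49 at day 0 (adjusted p = 0.806, and 0.0106 with replicate as a block) and, with the block, -1.20 for differentiation in siBach1 cells (adjusted p = 0.00512).

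Averaged over the 4 conditions, the 8 arrays of replicates 1 and 2 gave a Myf5 signal at least 4.44-fold higher than the 4 replicate 3 arrays, set as a bound against the lowest signal called well above background on each dim array or the probe's own where that was higher. Of the 26431 probes well above background on all 8 of those arrays, 204 were well above background on 0 of the 4 replicate 3 arrays, as Myf5 was, and 0 probes showed the opposite pattern. The replicate 3 mean minus that of replicates 1 and 2 had a median of 0.05 on the log2 scale over those 26431 probes. Of them all, Myf5 had the most negative such difference, whose size is not measured because replicate 3 was below background. The difference was -0.30 for Myf6, close to background itself, which lies next to Myf5 on chromosome 10 in the reference annotation. It was -0.58 for Pax7, -0.41 for Myog and -0.07 for Myod1. Replicate 3 had its own slide, so whether the low Myf5 signal belongs to the cells or to the slide cannot be told apart.

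**Figure D2:**
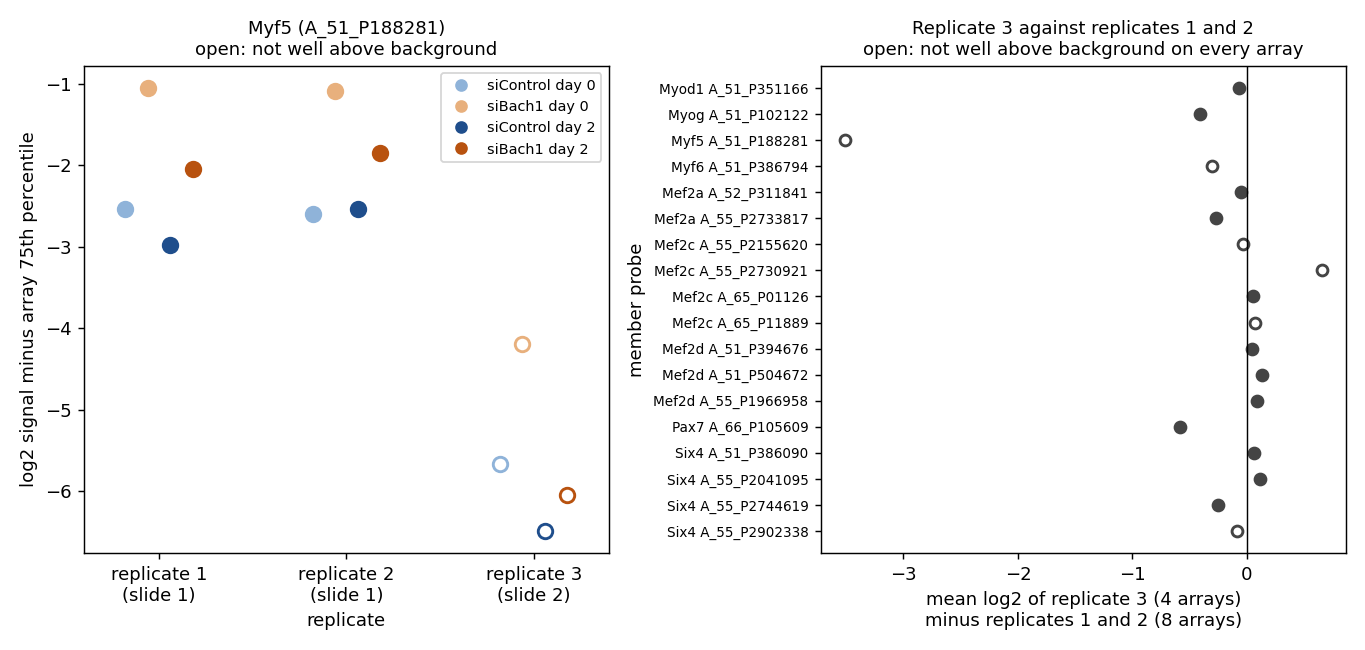
Left, log2 signal of the Myf5 probe in each replicate of the 4 conditions (open symbols, not well above background). Right, for each of the 18 member probes, the mean of the 4 replicate 3 arrays minus the mean of the 8 arrays of replicates 1 and 2 (log2; open, not well above background on every array, so that the place is no measured gap). The 12 filled points lie between -0.58 and 0.13, and Myf5 is the open point farthest to the left.

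Myf6 was close to background. It was well above it on 2 of 3 arrays in both day 0 conditions and on 3 of 3 in both day 2 conditions. Its log2 signal was -3.88, -4.40 and -4.56 in siControl and -3.53, -3.56 and -3.95 in siBach1 cells at day 0. At day 2 the values were -3.90, -3.32 and -3.89 against -3.71, -3.50 and -3.73. The groups overlapped at both days. Silencing gave 0.60 at day 0 (SE 0.21, adjusted p = 0.0783; 0.0393 with replicate as a block) and 0.06 at day 2 (adjusted p = 0.901). The blocked call held in only 1 of the 6 fits that left out a day 0 array, the one without siControl replicate 1 (adjusted p = 0.0114), and the others gave up to 0.139. It rose by 0.57 with differentiation in siControl cells (SE 0.21, adjusted p = 0.0397), where the arrays of the 2 days overlapped, and differed by 0.03 in siBach1 cells (adjusted p = 0.91). The rise in siControl cells was lost without siControl day 0 replicate 2 (adjusted p = 0.113), siControl day 0 replicate 3 (0.138) or siControl day 2 replicate 2 (0.15).

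The Mef2 genes rose with differentiation in siControl and in siBach1 cells at each of their 8 tested probes. Mef2c, which is needed in the developing heart and in maturing muscle fibres, rose most. Its probe with the highest signal (A_65_P01126) read -0.19, -0.44 and -0.13 in siControl and -0.92, -1.21 and -0.73 in siBach1 cells at day 0. At day 2 it read 3.09, 3.10 and 2.99 in siControl and 2.93, 2.79 and 2.67 in siBach1 cells. The siRNA groups did not overlap at either day. It rose 9.97-fold in siControl (3.32, SE 0.13, adjusted p = 4.23e-08) and 13.4-fold in siBach1 cells (3.75, SE 0.13, adjusted p = 3.02e-08).

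At day 0 this Mef2c probe was 1.62-fold lower upon silencing (-0.69, SE 0.13, n = 3, adjusted p = 0.00569), with -0.72, -0.76 and -0.60 in the 3 replicate pairs, and the call held without any 1 of the 6 arrays (adjusted p between 0.00434 and 0.0259). At day 2 the difference was -0.27 (adjusted p = 0.232). The other probes of Mef2c did not give the same picture at day 0. The probe A_55_P2155620 differed by -0.15 at day 0 (adjusted p = 0.522) and -0.30 at day 2 (adjusted p = 0.208), and rose by 3.55 in siControl and 3.40 in siBach1 cells. Its signal in siBach1 day 0 replicate 3 was not well above background. The probe A_55_P2730921 was well above background on 0 of the 6 day 0 arrays and on all 6 day 2 arrays. It therefore rose at least 2.09-fold in siControl and at least 2.20-fold in siBach1 cells, its bright mean being set against the lowest signal called well above background on the dim arrays. Its day 0 difference between siRNAs passed the test (adjusted p = 0.0246) with both groups below background, so no fold is given.

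Mef2a rose with differentiation in both siRNA groups. Its probe with the highest signal (A_55_P2733817) read 2.82, 2.98 and 2.56 in siControl and 3.30, 3.10 and 2.81 in siBach1 cells at day 0, with overlap. The day 2 values were 4.31, 4.11 and 3.83 against 4.25, 4.16 and 4.23, again with overlap. The rise was 2.46-fold in siControl (1.30, SE 0.16, adjusted p = 5.68e-05) and 2.20-fold in siBach1 cells (1.14, SE 0.16, adjusted p = 0.000132). The other Mef2a probe (A_52_P311841) rose by 1.18 and 0.96. At day 0 that probe was 1.27-fold higher upon silencing (0.35, SE 0.08, adjusted p = 0.0141), while the first differed by 0.28 (adjusted p = 0.256). The call was lost without siControl day 0 replicate 2 (adjusted p = 0.0557) or siBach1 day 0 replicate 2 (0.0529).

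Mef2d had 3 probes, whose differences upon silencing had opposite signs at day 2. The probe with the highest signal (A_51_P394676) read 3.22, 3.18 and 3.27 in siControl and 3.39, 3.29 and 3.38 in siBach1 cells at day 0. At day 2 the values were 4.72, 4.65 and 4.74 against 4.49, 4.57 and 4.53. The siRNA groups were apart at both days, siBach1 above at day 0 and below at day 2. Neither difference passed the test, with 0.13 at day 0 (SE 0.07, adjusted p = 0.233) and -0.17 at day 2 (SE 0.07, adjusted p = 0.143). The silencing effects of the 2 days differed by -0.30 (adjusted p = 0.109; 0.0435 with slide as a block). It rose 2.79-fold in siControl (1.48, SE 0.07, adjusted p = 1.05e-07) and 2.27-fold in siBach1 cells (1.18, SE 0.07, adjusted p = 4.23e-07).

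The 2 other Mef2d probes, which share a RefSeq transcript, were higher upon silencing. The probe A_51_P504672 rose by 0.67 at day 0 (SE 0.10, adjusted p = 0.00151) and by 0.37 at day 2 (SE 0.10, adjusted p = 0.0392). The day 0 call held without any 1 of its 6 arrays. The day 2 call was lost in 5 of 6 such fits, with adjusted p between 0.0788 and 0.106 in those and 0.031 without siControl day 2 replicate 3. The probe A_55_P1966958 rose by 0.38 at day 0 (SE 0.11, adjusted p = 0.042), and at day 2 the difference was 0.36 (adjusted p = 0.0666; 0.0396 with replicate as a block). Its day 0 call was lost in 5 of 6 fits with an array left out, with adjusted p up to 0.136. With differentiation these 2 probes rose by 0.89 and 0.62 in siControl and by 0.59 and 0.60 in siBach1 cells.

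**Figure D3:**
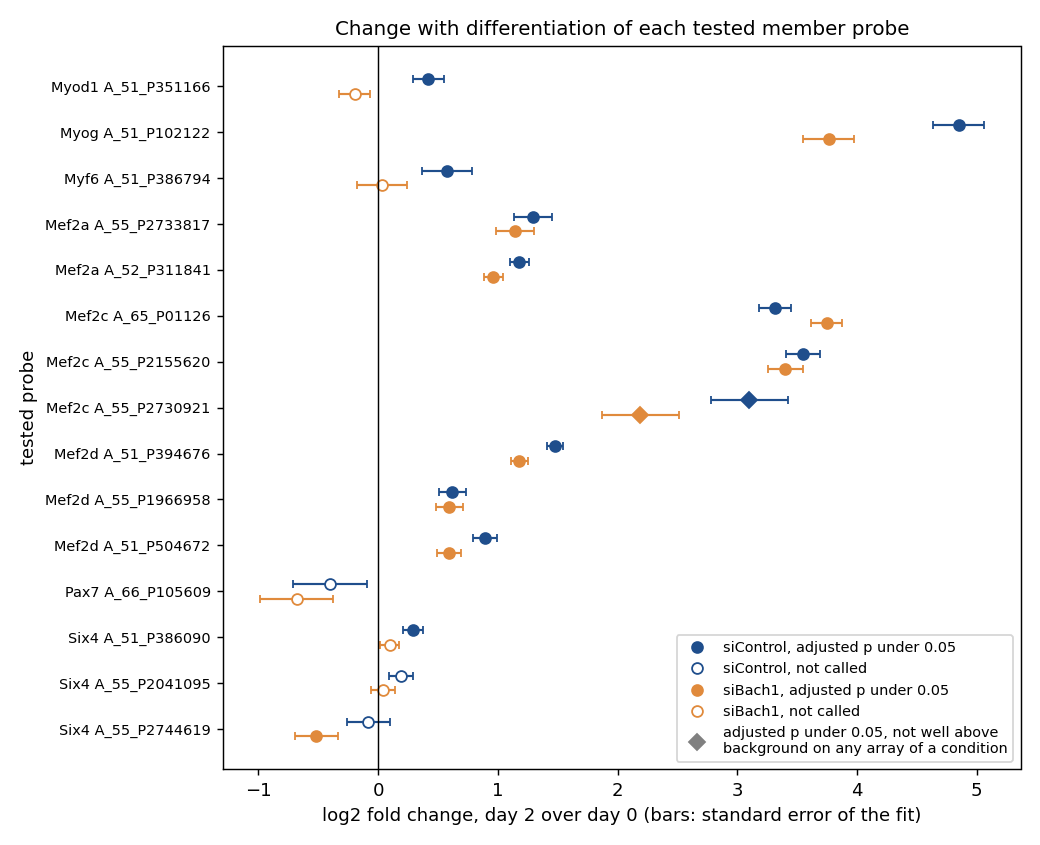
Change from day 0 to day 2 of the 15 tested member probes in siControl and siBach1 cells (log2 fold change, bars the standard error of the limma fit; filled circles passed an adjusted p under 0.05). Myog and 2 Mef2c probes lie farthest to the right, between 3.32 and 4.85, and diamonds mark the Mef2c probe that was below background at day 0, whose place is no measured change.

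Pax7 was low, and every siBach1 array lay below every siControl array at both days, as it did for the first Mef2c probe. Its log2 signal was -1.67, -1.43 and -2.08 in siControl and -2.17, -2.13 and -3.20 in siBach1 cells at day 0. At day 2 it was -2.06, -2.10 and -2.21 in siControl and -3.28, -2.69 and -3.59 in siBach1 cells. The means differed by -0.78 at day 0 (SE 0.31, adjusted p = 0.114) and by -1.06 at day 2 (SE 0.31, adjusted p = 0.0502), neither past the threshold. Both passed with replicate as a block, Pax7 being 1.72-fold lower at day 0 (adjusted p = 0.0184) and 2.09-fold lower at day 2 (adjusted p = 0.00736). With the block the day 2 call held without any 1 of the 6 day 2 arrays (adjusted p between 0.00736 and 0.0379). The day 0 call held in 2 of 6 such fits, with adjusted p up to 0.0605, and without siBach1 day 0 replicate 3 the day 0 difference was -0.57 with the block (adjusted p = 0.0593) and -0.43 without it (0.315). With differentiation Pax7 changed by -0.40 in siControl (adjusted p = 0.301) and by -0.68 in siBach1 cells (adjusted p = 0.0836; 0.0123 with replicate as a block). The spread between siBach1 arrays was large (SD 0.61 at day 0 and 0.46 at day 2), and replicate 3 was the lowest in all 4 conditions.

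Six4 was called higher upon silencing at day 0 at some of its probes, though not under every setting. Its probe with the highest signal (A_51_P386090) read 2.00, 2.17 and 2.14 in siControl and 2.43, 2.38 and 2.48 in siBach1 cells at day 0, without overlap. At day 2 it read 2.48, 2.31 and 2.40 against 2.52, 2.46 and 2.60, with overlap. The rise at day 0 was 1.25-fold (0.32, SE 0.08, adjusted p = 0.0216), and the difference at day 2 was 0.13 (adjusted p = 0.344). The call was lost without siControl day 0 replicate 1 (adjusted p = 0.0888), siBach1 day 0 replicate 1 (0.0555) or siBach1 day 0 replicate 3 (0.0662). The probe A_55_P2744619 rose by 0.80 at day 0 (SE 0.18, adjusted p = 0.0133), a call that held without any 1 of the 6 arrays, and the probe A_55_P2041095 differed by 0.27 (adjusted p = 0.0974; 0.043 with slide as a block). Over 18 alternative settings with other scaling, filters, blocks or tests, the day 0 difference passed in 11 for A_51_P386090. It passed in 14 for A_55_P2744619 and in 2 for A_55_P2041095.

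With differentiation the first Six4 probe rose by 0.29 in siControl cells (SE 0.08, adjusted p = 0.0117) and differed by 0.10 in siBach1 cells (adjusted p = 0.347). Centring on the median moved the first of these to 0.11 (adjusted p = 0.451) and turned the second to -0.15. The probe A_55_P2744619 fell by 0.52 in siBach1 cells (SE 0.18, adjusted p = 0.0328) and changed by -0.08 in siControl cells (adjusted p = 0.734). That fall was lost in 4 of 6 fits with an array left out.

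Counted over the 15 tested member probes, 7 passed an adjusted p under 0.05 upon silencing at day 0, 6 of them higher, against 17.1% of the 29664 probes tested, with 8.8% higher and 8.32% lower. Of the 6, 5 were measured in both groups, 1 of Mef2a, 2 of Mef2d and 2 of Six4. The sixth, a Mef2c probe, was below background in both groups and entered the test only through day 2, while the lower one is the other Mef2c probe described above. At day 2, 3 passed, with Myog and Myod1 lower and 1 Mef2d probe higher, against 12% of all probes, 5.75% higher and 6.26% lower. With arrays centred on their median, 3 of the members were called higher and 1 lower at day 0, where 12.4% of all probes were called and 33.3% of those were higher. At day 2 none were called higher and 3 lower, where 12.8% of all probes were called and 23.7% of those were higher. With quantile normalization 2 were called higher and 2 lower at day 2, where 12.5% of all probes were called and 50.7% of those were higher. The deposited normalized values gave 1 higher and 3 lower at day 2, with 12.1% of all probes called and 47.4% of those higher. Normexp gave 1 higher and 3 lower at day 2, with 11.7% of all probes called and 40.5% of those higher. Of the members measured in both groups, 0 passed with a change of at least 2-fold at either day, against 2.79% of all probes at day 0 and 2.17% at day 2. The fit gave such a change at day 0 only to the Mef2c probe below background, which has no measured fold. The siRNA groups did not overlap for 10 of the 15 at day 0, 8 higher and 2 lower, against 37.3% of all probes. The 8 include the Mef2c probe that was below background in both groups. At day 2 this held for 9 of 15, 3 higher and 6 lower, against 32.8%. The median difference over the 15 was 0.28 at day 0 and 0.12 at day 2, and over all tested probes it was 0.09 and -0.01.

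**Figure D4:**
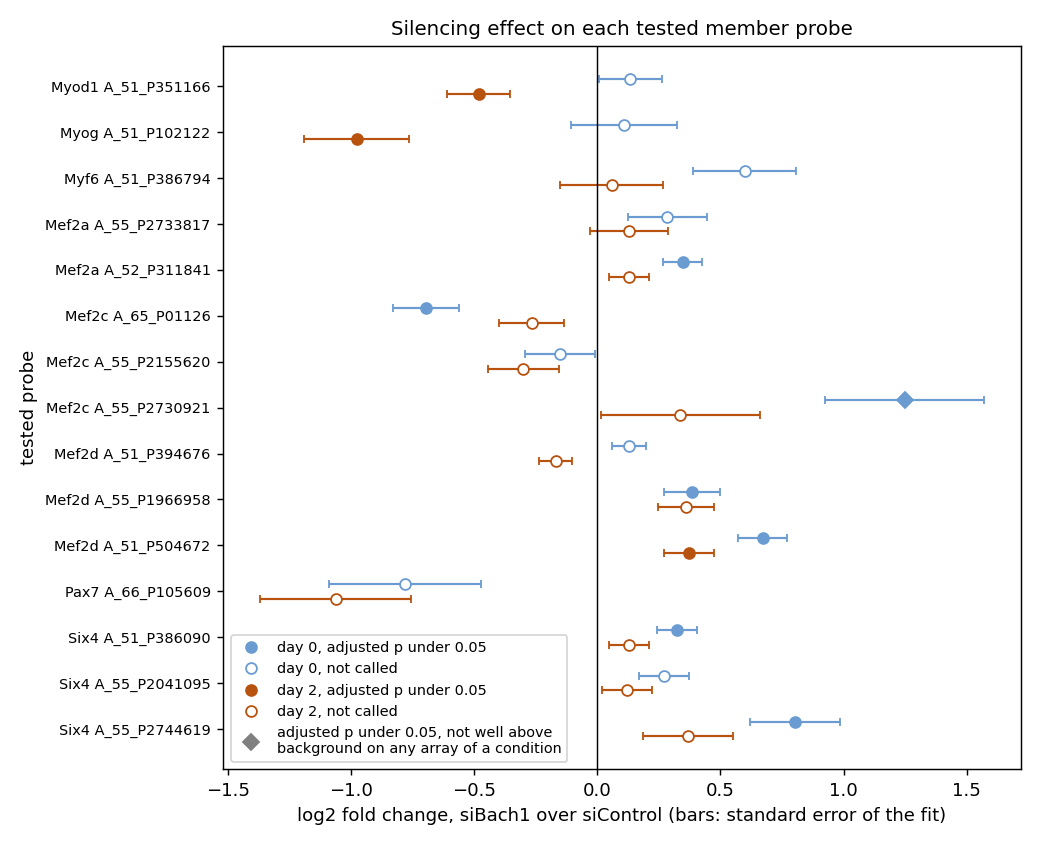
Difference between siBach1 and siControl cells for the 15 tested member probes at day 0 and day 2 (log2 fold change, bars the standard error of the limma fit; filled circles passed an adjusted p under 0.05). Myog and Myod1 lie left of 0 at day 2 only, Pax7 lies left of 0 at both days without passing, and the diamond marks the Mef2c probe that was below background at day 0.

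With replicate as a block, 9 member probes passed at day 0 and 5 at day 2, against 27.5% and 21.3% of all probes. With slide as a block 10 passed at day 0 and 5 at day 2, against 28% and 21.8%. The effect at day 2 lay below that at day 0 for 14 of the 15, with a median difference of -0.28 against -0.07 over all probes. No difference between days passed without a block, against 4.59% of all probes, and 4 had an unadjusted p under 0.05. Only Myog passed with replicate as a block, 1 of 15, against 13% of all probes, and with slide as a block 4 passed, against 13.7%. Both day 0 counts with a block, and these 4, include the Mef2c probe A_55_P2730921, which was below background on every day 0 array. The probes of 1 gene are not independent of each other, and every comparison shares arrays with others, so these counts are descriptions.

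With differentiation 12 of the 15 rose in siControl cells, against 24.6% of all probes called higher, 28.7% called lower and 53.4% in either direction. The 12 covered Myog, Myod1, Myf6, 1 Six4 probe and all 8 Mef2 probes. In siBach1 cells 9 rose, Myog and the 8 Mef2 probes, against 23.8% of all probes, and 1 fell, a Six4 probe, against 32.3%, with 56.1% called in either direction. Centred on the array median, 9 were called higher in each siRNA group, and 3 were called lower in siBach1 cells, among them Myod1 and Pax7. Of all probes that centring called 53.7% in siControl cells, 32.4% of them higher, and 58.9% in siBach1 cells, 27.7% of them higher. A change of at least 2-fold passed for 7 in siControl and 6 in siBach1 cells, against 20% and 20.5% of all probes. The arrays of the 2 days did not overlap for 11 of 15 in siControl cells, against 61.9% of all probes, and for 10 of 15 in siBach1 cells, against 61.3%. The median change over the 15 was 0.89 and 0.60, against 0.00 and -0.07 over all probes. Among the risers, the Mef2c probe A_55_P2730921 was below background on every day 0 array and entered the test only through day 2. Myf6, called in siControl cells, also entered only through day 2. For both, the filter itself favoured a rise. The counts of 2-fold changes and of arrays without overlap also include that Mef2c probe.

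Of 9 relatives and cofactors of the members (Mef2b, Pax3, Six2, Six5 and genes of the Eya and Dach families), 5 were tested, and Eya2 and Dach1 were well above background on 0 arrays. For this list and those below, with 1 probe per gene, these are the shares of all 29664 probes tested. Upon silencing 8.8% were called higher and 8.32% lower at day 0, and 5.75% and 6.26% at day 2. With differentiation 24.6% were called higher and 28.7% lower in siControl cells, and 23.8% and 32.3% in siBach1 cells. The silencing effects of the 2 days differed for 4.59%, and for 13% with replicate as a block. That block called 27.5% at day 0 and 21.3% at day 2. Upon silencing at day 0, 3 rose, among them Six5 (0.70, adjusted p = 0.00719) and Eya4 (0.49, adjusted p = 0.0221), and none fell. At day 2 none of the 5 passed, and 1 did with replicate as a block. With differentiation in siControl cells Eya4, a coactivator that pairs with Six4 and its relatives, rose by 1.30 and Six5 by 0.46, and Eya1 fell by 0.75. The list's median was 0.33 at day 0 and 0.09 at day 2 upon silencing, against 0.09 and -0.01 over all probes.

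All 19 partners and coactivators of the members were tested. Upon silencing at day 0, 1 rose and 4 fell, and at day 2 none rose and 4 fell. The block on replicate gave 3 risen and 5 fallen at day 0, and none risen and 8 fallen at day 2. Setd7, a lysine methyltransferase, fell by 1.44 (adjusted p = 2.83e-05) and Mapk14, the p38 alpha kinase that activates Mef2 and Myod1 complexes, fell by 1.39 (adjusted p = 8.92e-06) at day 0. Vgll2, a cofactor of Tead factors in muscle, rose by 0.94 (adjusted p = 0.000224). At day 2 Tead4, a Tead factor that acts downstream of Myod1, fell by 0.68 (adjusted p = 0.00855) and Mapk14 by 0.64 (adjusted p = 0.00147). With differentiation in siControl cells 7 rose, led by Tead4 (1.64) and the cell surface receptor Cdon (1.11), and 6 fell, led by the arginine methyltransferases Prmt5 (-0.996) and Carm1 (-0.72). In siBach1 cells 7 rose, led by Tead4 (1.91) and Setd7 (1.62), and 5 fell, led by Vgll2 (-1.18) and the E protein gene Tcf3 (-1.05). The silencing effects of the 2 days differed for 4 of the 19, among them Setd7 (0.99) and Vgll2 (-1.29), the adjusted p being 0.0111 and 0.00462. The list's median upon silencing was 0.03 at day 0 and -0.23 at day 2.

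Of 23 inhibitors of the myogenic factors, 21 were tested, and Id4 and Twist1 were well above background on 0 arrays. Upon silencing at day 0, 3 rose and 6 fell. The helix-loop-helix repressor Msc fell by 1.25 (adjusted p = 0.0054) and Mdfi, a protein that binds myogenic factors in the cytoplasm, by 1.11 (adjusted p = 0.0129). Mdfi was well above background on only 9 of the 12 arrays, so the size of its fall may not be fully measured. Bhlhe41 rose by 1.36 (adjusted p = 0.00115) and the Notch target Hey1 by 0.78 (adjusted p = 0.00296). At day 2 only Ezh2, the Polycomb methyltransferase, passed, lower by 0.67 (adjusted p = 0.00597), and with replicate as a block 1 rose and 3 fell. With differentiation in siControl cells 9 rose and 9 fell, with Hdac9 (2.75) and Heyl (2.55) rising and Id3 (-2.71) and Ccnd1 (-2.62) falling. In siBach1 cells 8 rose and 8 fell, Hdac9 (3.07) and Heyl (1.36) in one direction and Id2 (-3.47) and Id3 (-2.69) in the other. The median upon silencing was 0.08 at day 0 and -0.13 at day 2.

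The muscle genes that these factors bind or switch on rose with differentiation in both siRNA groups. Of 32 tested, 31 rose in siControl cells (median 4.73) and 30 in siBach1 cells (median 4.27). Ckm, muscle creatine kinase, rose by 6.75 and 6.78, and the myosin light chain gene Myl4 by 6.16 and 6.09. Smyd1, a methyltransferase of muscle, did not pass in either (0.24, adjusted p = 0.628, and 0.01, adjusted p = 0.99), and the cadherin gene Cdh15 did not pass in siBach1 cells (0.21, adjusted p = 0.0605). Upon silencing at day 0, 6 rose and none fell, with Klhl41 (0.88, adjusted p = 0.0475) and Chrng, a subunit of the fetal acetylcholine receptor (0.70, adjusted p = 0.00654), at the top. At day 2, 1 rose and 8 fell. Hspb3, a small heat shock protein of muscle, fell by 0.93 (adjusted p = 0.0236) and Actc1, cardiac alpha actin, by 0.75 (adjusted p = 0.00158), while Pgam2, the muscle phosphoglycerate mutase, rose by 0.80 (adjusted p = 0.0156). Hspb3 was well above background on only 9 of the 12 arrays. The list's median upon silencing was 0.04 at day 0 and -0.33 at day 2, against 0.09 and -0.01 over all probes. The block on replicate gave 2 risen and 12 fallen at day 2. The silencing effects of the 2 days differed for 4 of the 32, with Actc1 (-0.88) and Chrnd (-0.75) the most negative, and for 9 with the block.

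**Figure D5:**
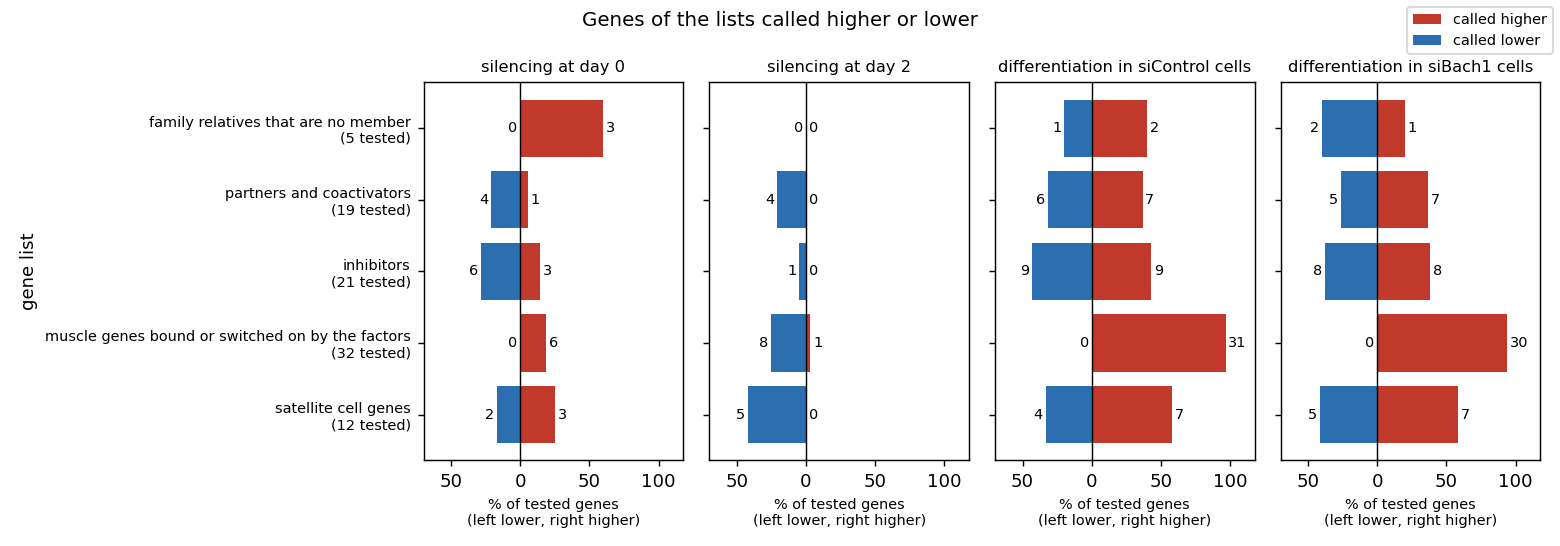
Share of the tested genes of each list that were called higher (right) or lower (left) at an adjusted p under 0.05 in 4 comparisons (percent; numbers beside bars are counts of genes). With differentiation the muscle genes were called higher in 31 and 30 of 32 cases, and upon silencing at day 2 the called genes of the lists were mostly lower, 8 of 32 for the muscle genes and 5 of 12 for the satellite cell genes. Of all tested probes 24.6% and 23.8% were called higher with differentiation. Upon silencing at day 2, 5.75% of them were called higher and 6.26% lower.

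Genes linked to satellite cells, the cells in which Pax7 is known best, moved in both directions. Of 14 listed, 12 were tested. Upon silencing at day 0, 3 rose and 2 fell, with Spry1, an inhibitor of growth factor signalling (1.80, adjusted p = 9.56e-05), and the chemokine receptor Cxcr4 (1.74, adjusted p = 0.000241) higher. Cd34 was lower by 1.21 (adjusted p = 0.000376) and the syndecan gene Sdc4 by 1.08 (adjusted p = 0.00128). At day 2, 5 fell and none rose, with Cd34 (-1.11, adjusted p = 0.00143) and Sdc4 (-0.88, adjusted p = 0.0069) lowest. The silencing effects of the 2 days differed for Spry1 by -2.47 (adjusted p = 0.0021) and for Cxcr4 by -1.22 (adjusted p = 0.0359). With differentiation in siControl cells 7 rose, led by Spry1 (3.06) and Notch3 (1.66), and 4 fell, led by the receptor gene Met (-1.46) and Sdc3 (-0.95). In siBach1 cells 7 rose, led by Notch3 (1.48) and Notch1 (0.98), and 5 fell, led by Met (-2.22) and Sdc3 (-1.24). The median upon silencing was 0.15 at day 0 and -0.27 at day 2.

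Among 15630 genes compared with 1 probe each, those whose signal over the 12 arrays was most like that of Myog were Cobl, Daam2, Pi16, Actn3 and Hspb3, with Pearson's r between 0.996 and 0.998. Of the members, Mef2d (r = 0.987), Mef2c (0.973) and Mef2a (0.946) were most like it, and Myod1 had r = 0.37. Since the day 0 and day 2 arrays of Myog form separate clusters, these values describe the gap between days and carry no test. Myod1 had no gene as close, the nearest being Gm20751 (r = 0.846), followed by Rnu1b1, Pebp1, Rnu1b6 and Fam96b. The genes most like Myf5 over the 12 arrays were 2600002B07Rik (r = 0.974), Cystm1, Lbx2, Lep and Gm1993, and these values include the 4 replicate 3 arrays, on which Myf5 was below background. Over the 6 day 2 arrays, which also fall into 2 groups by siRNA, Myod1 and Myog had r = 0.988 with each other. The nearest genes there were Crip2, Spata6, Pcdhb14, Ywhae and Eno3 for Myod1 and Pcbp2, Socs2, Wdr31, Lamtor1 and Ica1l for Myog, all with r between 0.995 and 0.999.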

How the data were processed

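One-colour Agilent mouse arrays measured RNA of 12 C2C12 samples. The authors deposited the scanner's files, whose processed signal is a background-subtracted intensity, and a table of normalized log2 values centred on each array's 75th percentile and each probe's median. Feature Extraction is 10.7.3.1 per the file headers and 9.1 in the submitters' processing notes. The array design names build mm9, so no probe coordinates are given.

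Control spots and outlier flags were removed, repeated spots were averaged as log2, and the array's 75th percentile was subtracted. These values, centred per probe, differed from the deposited log2 values by a median of 0.00096 and at most 0.25. Symbols are those of the deposited table, and 14 of the 18 members' accessions were found in the reference, all under the same symbol. The 29664 probes that the scanner called well above background in every replicate of 1 or more conditions were tested in 1 limma 3.58.1 fit (R 4.3.3) with 4 groups, Benjamini-Hochberg adjustment over all of them and a threshold of 0.05. Python 3.11, pandas 2.3.3, numpy 2.4.6 and matplotlib 3.10.9 did the rest. In simulated data for silencing at day 2 (29664 probes, 200 changed), 63% were recovered at a log2 change of 1 with 8 false calls and 90% at 2 with 9 false calls. Precision is limited by how many arrays there were.

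Arrays with the same replicate number deviated together from their group means in all 18 pairs (r between 0.142 and 0.595, over the limit of 0.1). The numbers, taken from the labels, were therefore used as a block. Arrays of the same number also share a row of the same slide. Whether the shared deviation belongs to the samples or to that position cannot be told apart. The main fit has no block. Alternatives were replicate or slide as a block, quantile normalization, normexp on median signals with an offset of 50, the deposited normalized values, other filters, a fold of at least 2, a robust trended prior, the methods' t-test, only the arrays of a comparison, each array left out in turn and, chosen after seeing the data, median centring, 1 slide alone and the block combined with others.

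Of a gene with several probes, the one with the highest mean signal is described in full. Named from each list are the 2 genes with the largest called rise and fall in a comparison, and from like patterns the 5 with the highest Pearson correlation. The members and lists were chosen with earlier results of these data known, and the motif TCAGGTT was added after the sequences were seen. One gene of a list is not reported here, and counts leave it out.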

Additional observations from a re-analysis of the deposited data

Results flagged for a closer look

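The effect of silencing on Myog differed between the days when replicate was a block. The difference was -1.08 on the log2 scale (day 2 minus day 0, -0.98, -1.14 and -1.14 in the 3 replicate pairs), and the test of that difference in limma passed with replicate as a block (adjusted p = 0.0119) and not without it (0.071). Over the alternatives the difference lay between -1.14 and -0.93, with adjusted p between 0.00255 and 0.461. With the block it passed in each of the 12 fits that left out 1 array, and without the block in none of the 12. Groups of 3 arrays were not searched for outlying samples.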

How the results depend on the processing

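Counts of the 15 member probes that passed moved as follows, from 7 for silencing at day 0, 3 at day 2, 12 and 10 for differentiation in siControl and siBach1 cells and 0 for the difference between days. Without the filter on dim probes they were 2 at day 0 and 0 at day 2, where 56605 probes were tested. The methods' t-test gave 2 at day 0, 1 at day 2 and 1 for the difference between days after adjustment, and 8 at day 2 and 4 for the difference without it. A fit of only the arrays compared gave 2 at day 0. A required change of 2-fold gave 1, 0, 7 and 6 in the 4 comparisons. The 1 at day 0 is the Mef2c probe below background there, and the 7 and 6 include it. A robust trended prior gave 2 for the difference between days. Slide as a block gave 10 at day 0, adding Myf6, Pax7 and a Six4 probe, 5 at day 2 and 4 for the difference. Where the text prints no share of all probes for a setting, here or below, its count cannot be read as particular to the members.

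Settings chosen after seeing the data moved them too. Centring on the array median gave 4 at day 0, and the slide of replicates 1 and 2 alone without the filter gave 0 at both days, from fewer samples. With replicate as a block on normexp values the counts were 5 at day 2 and 4 for the difference, and on quantile normalized values 1 for the difference. The cause was not tested for the scaling, prior and background settings.

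With replicate as a block the counts were 9, 5, 12, 11 and 1. The calls it added are printed beside their members, and no member lost its call. Leaving out 1 array gave 4 to 7 at day 0, with 4 without siControl replicate 2 or siBach1 replicate 3, and 0 to 2 at day 2, with 0 without siControl replicate 1 or siBach1 replicate 3. It gave 10 to 12 and 9 to 11 for differentiation and 0 for the difference. With the block such fits gave 6 to 7 at day 0, 2 to 4 at day 2, and 1 to 2 for the difference, with 2 without siBach1 day 2 replicate 1.

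Single probes kept direction and side of the threshold in 1274 of the planned values, became weaker in 90 and stronger in 46, and none that had been called turned its direction. Centring on the median moved the median of all tested probes to 0.03 and -0.14 for silencing at day 0 and day 2, -0.18 and -0.31 for differentiation in siControl and siBach1 cells, and -0.13 for the difference. Of all called probes the share higher moved from 51.4% to 33.3%, from 47.9% to 23.7%, from 46.1% to 32.4% and from 42.5% to 27.7% in the first 4 comparisons, and for the difference from 52% to 64.8% with quantile normalization and to 42.7% with normexp. Signal near background limits Myf5, Myf6 and the dim Mef2c and Six4 probes.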

Other observations

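Both member probes that were never well above background are listed for completeness. The Mef2c probe A_65_P11889 lay between -7.48 and -5.60 and the Six4 probe A_55_P2902338 between -7.02 and -5.21 on the log2 scale over the 12 arrays. The log2 of the summed signal of 5 osteoblast markers lay between 0.36 and 0.75 in siControl and 0.62 and 0.92 in siBach1 cells at day 0, and between 0.46 and 0.92 against 0.62 and 1.19 at day 2. That of 4 leukocyte markers lay between 2.46 and 2.73 against 2.72 and 2.86 at day 0, and between 1.83 and 2.35 against 1.83 and 2.54 at day 2. That of 5 fat cell markers lay between 2.32 and 2.57 against 2.33 and 2.81 at day 0, and between 1.18 and 1.76 against 1.66 and 1.90 at day 2. In each of these 3 lists the siRNA groups overlapped at both days. The part of these markers in the differences of the members was not tested.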
